A study of Mus musculus with 4 samples.

Results

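H19 and 7 other imprinted growth genes (Igf2, Igf2r, Dlk1, Meg3, Peg3, Plagl1 and Cdkn1c) were followed cell by cell in mouse skin tumours. They are 8 of the 31054 rows of each deposited matrix and were taken by symbol, each of which matched 1 row. The set was chosen by measured values, after H19 had been seen to lead a cluster of tumour cells in a control library, so the levels in tumour cells are given as a description, without a test. The tumours came from mice with the alleles Lgr5CreER, p53 fl/fl and Rosa26-YFP and a further allele that is not reported here, a genotype that controls and treated animals shared. In these mice tamoxifen switches on Cre in cells that express Lgr5, a gene of hair follicle stem cells, and with it loss of p53 and the YFP label. All animals received 4 daily tamoxifen injections of 2.5 mg from postnatal day 28, and tumours appeared 7 to 9 weeks later. The control group comprised 2 libraries, with no treatment named in the labels. The NP137 group comprised 2 libraries of mice given NP137, an antibody against netrin-1. The dose was 10 mg/kg, repeated every 2 days and begun 4 weeks after the tamoxifen. Live sorted cells of whole tumours were run on 10x Genomics droplets. The labels do not say how many mice a library holds, so p-values measure only the spread between these samples.

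Imprinted genes are expressed mainly from the copy inherited from the mother or from the father. Paternally expressed members such as Igf2, Dlk1, Peg3 and Plagl1 are classically tied to fetal growth, and maternally expressed ones such as H19, Igf2r, Meg3 and Cdkn1c to its restraint. Igf2 is a growth factor that signals through the IGF1 receptor, Igf2r takes it up for degradation, H19 and Meg3 are long noncoding RNAs, and Cdkn1c inhibits cyclin-dependent kinases. Most members are high in the embryo and silenced in many adult tissues, skin included. The counts do not tell the parental copies apart.

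The members lie in 5 regions of GRCm38 (mm10), placed here with GENCODE M21. H19 is at chr7:142575529-142578143 on the minus strand. Igf2, at chr7:142650766-142666816, lies 72.6 kb from it, and Cdkn1c, at chr7:143458339-143461050, another 791.5 kb on. Peg3 is on the same chromosome but far away, at chr7:6703892-6730431. Dlk1 at chr12:109452823-109463336 and Meg3 at chr12:109541001-109571726 are neighbours with a gap of 77.7 kb. Plagl1 is at chr10:13060504-13131694 and Igf2r at chr17:12682406-12769664. H19 and Meg3 are annotated as lincRNA and the other 6 as protein coding. Igf2r overlaps the antisense gene Airn, Igf2 overlaps Igf2os and Cdkn1c an antisense gene without a name of its own. Whether the counting used strand is not given in the sources used here, so reads of such pairs may not be separated.

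H19 is an exonic host of a microRNA, and the droplet chemistry reads only the 3′ end of a transcript. Both stretches are shown because they separate what H19 can make from what was counted. The mature miR-675 strands lie in exon 1 of transcript H19-202, at chr7:142577112-142577133 and chr7:142577078-142577099 on the minus strand (RefSeq, GRCm38.p6), with the seed, bases 2 to 8, in capitals. The last 30 bases of the same transcript, at chr7:142575529-142575558 in exon 5 of 5, hold the polyadenylation signal AATAAA, in capitals. It begins 22 bases before the annotated end.
miR-675-5p: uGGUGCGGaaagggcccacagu
miR-675-3p: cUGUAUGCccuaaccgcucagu
H19 3′ end: ggtccatcAATAAAtacagttacagtcatt
The seeds of the strands differ, and no level of a mature microRNA was measured.

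Of the 8 members 6 have a promoter in the RefSeq table, with 10 start sites between them, and H19 and Cdkn1c are named only. The 250 bases before the start were searched on both strands for the cAMP response element TGACGTCA, for TATAAA, for CCAAT and for the ZFP57 hexamer TGCCGC. TGACGTCA was found for Meg3 and Peg3, in 2 of 10 member promoters and in 1.55% of all 32851 promoters. TGCCGC was found for Meg3 and Plagl1, also in 2 of 10 member promoters (8.68% of all promoters). TATAAA was found for Meg3 alone (12.4% of all promoters), and CCAAT for Igf2, Meg3 and Peg3 (33.85%). The promoters of Meg3 (chr12:109540746-109540995, plus strand) and Peg3 (chr7:6730420-6730669, minus strand) are printed because both hold the element and both genes were highest in stromal cells. Capitals mark TGACGTCA, CCAAT or its reverse ATTGG, and TATAAA, which in Meg3 overlaps its own reverse complement. TGCCGC is not marked. A match of letters does not show that a factor binds.
Meg3 promoter: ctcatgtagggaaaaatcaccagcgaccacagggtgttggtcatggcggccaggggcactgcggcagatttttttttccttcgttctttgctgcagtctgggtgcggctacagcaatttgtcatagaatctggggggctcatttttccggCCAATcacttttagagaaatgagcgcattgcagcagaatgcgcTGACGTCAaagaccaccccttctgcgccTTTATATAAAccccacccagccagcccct
Peg3 promoter: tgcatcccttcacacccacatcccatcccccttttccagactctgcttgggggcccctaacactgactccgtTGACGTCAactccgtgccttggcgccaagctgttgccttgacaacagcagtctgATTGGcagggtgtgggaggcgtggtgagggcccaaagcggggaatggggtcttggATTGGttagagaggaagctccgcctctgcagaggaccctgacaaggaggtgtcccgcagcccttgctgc

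The matrices held 12792, 8328, 18146 and 17745 barcodes with 88076950, 73685280, 69517664 and 149021188 UMIs in control 1, control 2, NP137 1 and NP137 2. After filters 10482, 5301, 14205 and 14513 cells remained, in 32 clusters made without the members. Any pair of libraries shared between 14 and 52 barcode sequences, at most 0.48% of the smaller library. Tumour cells were taken as the 5 clusters in which 50% or more of the cells had YFP UMIs, 4429, 1141, 2906 and 855 cells with median depths of 8842, 27461, 8575 and 18726 UMIs. Levels are given as CPM, the UMIs of a gene scaled to the same total of UMIs in each class and library. The 10 epithelial markers of the tumour cells were all detected except 1 in NP137 2, with a summed level of 683 to 2382 CPM in control and 18806 to 19529 in NP137, and the fibroblast markers summed to 5577 to 7991 and 291 to 573. Nearly all YFP-positive cells of NP137 2, 852 of 855, lay in the cluster led by Epcam, against 299 of 4429 in control 1. Xist without a Y-linked RNA was seen in 64.4% of control 1 and 68.1% of NP137 2 cells and a Y-linked RNA without Xist in 51.4% of control 2 cells, while NP137 1 held both kinds (27.7% and 16.7%).

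H19 was the most abundant member in tumour cells of 3 libraries. These tags count molecules at the 3′ end, so the CPM scale holds no transcript length. H19 stood at 525 CPM in control 1 (95% Poisson interval 518 to 531), 177 in control 2 (172 to 181), 144 in NP137 1 (140 to 149) and 3.51 in NP137 2 (2.67 to 4.52). Intervals cover counting error only. Both control libraries lay above both NP137 libraries, but control 2 and NP137 1 were close, and NP137 2 stood apart from all others. Over the 4 libraries the mean was 212 ± 221 CPM (SD, n = 4), a spread as large as the level itself.

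H19 UMIs were also found in immune and stromal classes, at levels that moved with the tumour cells of the same library. Macrophage or monocyte-like cells, which are myeloid cells, held 112 CPM in control 1, 18.8 in control 2, 12.2 in NP137 1 and 0.906 in NP137 2. Tumour cells held 4.69, 9.40, 11.8 and 3.87 times that level. Cdkn2a, a gene with UMIs in 83.5%, 77.4%, 65.3% and 37.7% of tumour cells at 2000 UMIs per cell, was seen in 22.4%, 4.28%, 5.43% and 0.960% of macrophages. The H19 shares in macrophages at this depth were 21.3%, 4.28%, 1.71% and 0.0960%, against 31.8%, 10.9%, 14.0% and 0.721% in tumour cells. Median depths before thinning were 3886.5, 9202, 2072 and 5841 UMIs in macrophages. The macrophage level is taken below as the reference of each library. It is not the only possible reference. In these libraries neutrophil-like cells held 221, 42.3, 48.6 and 1.75 CPM and T or NK-like cells 218, 22.8, 12.01 and 0.449.

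**Figure D1:**
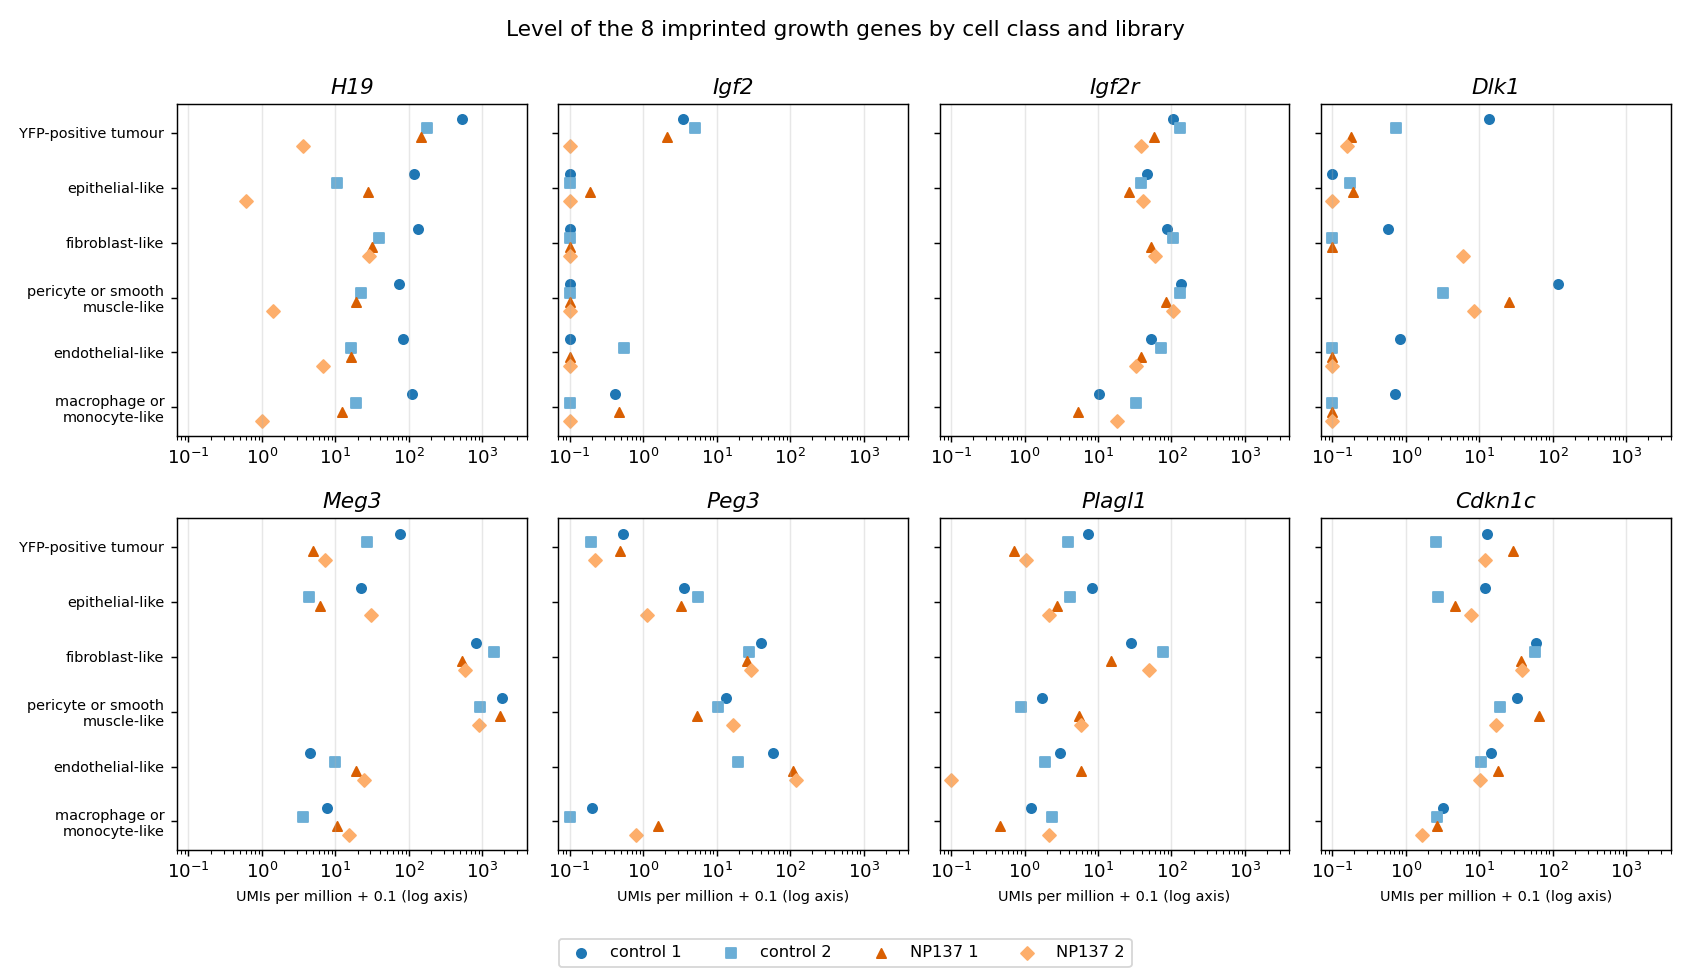
Level of each of the 8 genes (CPM plus 0.1, log axis) in 6 cell classes, with 1 symbol per library. H19 and Igf2 are highest in YFP-positive tumour cells, Meg3 and Dlk1 in pericyte or smooth muscle-like cells, Peg3 in endothelial-like and Plagl1 in fibroblast-like cells. Class means differ in order between libraries for several genes.

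Of the 3 stromal classes compared, fibroblast-like cells carried H19 above the macrophage level in all 4 libraries. Their raw levels were 132, 39.2, 31.9 and 28.5 CPM in control 1, control 2, NP137 1 and NP137 2. Above macrophages this left 20.6 CPM in control 1 (95% interval from counting error 7.84 to 33.4), 20.4 in control 2 (9.22 to 31.6), 19.6 in NP137 1 (7.49 to 31.8) and 27.6 in NP137 2 (25.9 to 29.3). The mean excess was 22.1 ± 3.71 CPM (SD, n = 4), and the groups overlapped. Against neutrophil-like cells the order differed, since these had higher CPM than fibroblast-like cells in all libraries but NP137 2. Counted per cell, fibroblast-like cells had 1.31, 0.951, 0.138 and 0.410 H19 UMIs, macrophages 0.459, 0.189, 0.0274 and 0.0059 and neutrophil-like cells 0.402, 0.201, 0.0453 and 0.0033. Depth per cell differed between these classes and its part in the excess was not tested. In the Mfap5 cluster that holds most fibroblast-like cells the levels were 139, 41.0, 33.1 and 37.7 CPM. Outside the 3 classes, the unnamed cluster led by Gzme, Gzmd and Mmp13 held 4.05 to 73.0 CPM over 3 libraries. Its best marker score was fibroblast, and this range lay below the macrophages of control 1 (112 CPM). The unnamed cluster led by Coch, Cilp and Apod, which scored close between Schwann and fibroblast, held 20.7 to 159 CPM over 3 libraries. In NP137 2 fibroblast-like cells held more H19 than the tumour cells beside them, 28.5 against 3.51 CPM.

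Pericyte or smooth muscle-like cells differed from macrophages by -39.2, 3.18, 6.96 and 0.404 CPM, with intervals that included 0 in all libraries but control 1. Endothelial-like cells differed by -29.98, -2.65, 4.20 and 5.84 CPM, and only in NP137 2 did the interval lie above 0 (1.99 to 9.69). Within them, the small cluster led by Ccl21a, Mmrn1 and Nts, markers of lymphatic endothelium, held 144 CPM in control 1 (46 cells), 77.4 in NP137 1 (63 cells) and 55.0 in NP137 2 (23 cells). The cluster led by Gpihbp1, Emcn and Plvap, genes of blood capillaries, held 70.3, 8.37 and 1.25 CPM in the same libraries. These lymphatic values rest on 30, 11 and 10 UMIs.

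**Figure D2:**
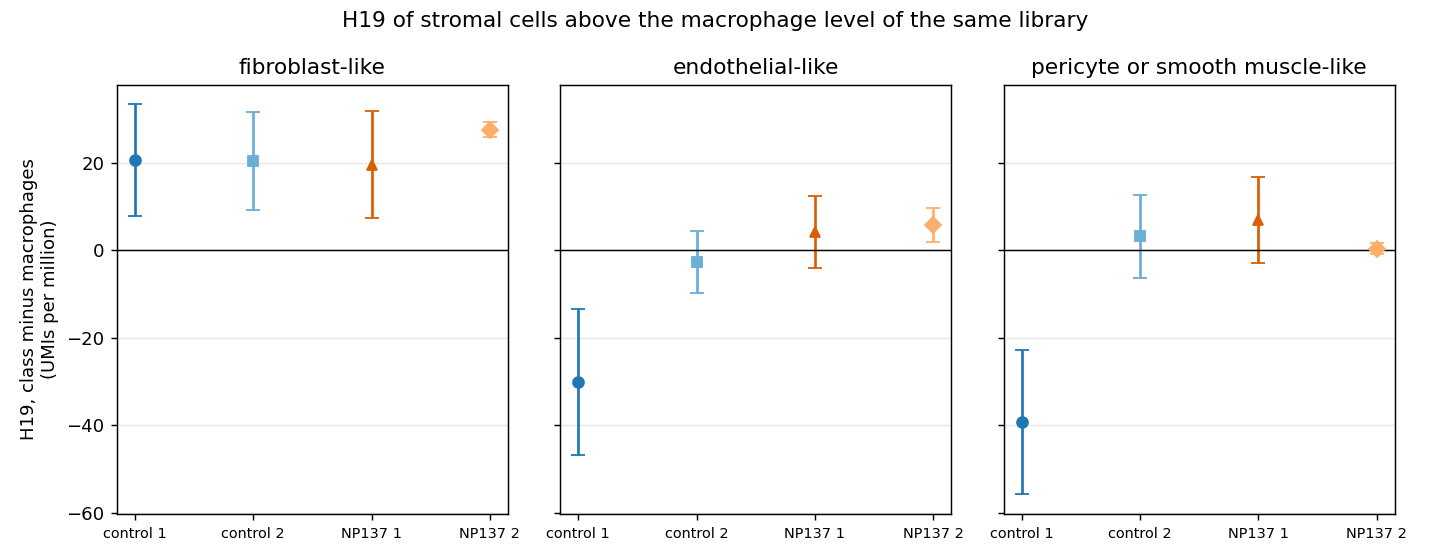
H19 of 3 stromal classes minus H19 of macrophage or monocyte-like cells of the same library, in CPM, with 95% intervals from counting error. Fibroblast-like cells lie between 19.6 and 27.6 in all 4 libraries, while the other classes reach at most 6.96.

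Within the tumour cells, H19 was set beside Vim, a gene of mesenchymal cells, and Epcam, an epithelial adhesion molecule. In each library it was higher in cells with Vim alone than in cells with both. For control 2 no value is given for Epcam alone. States were set by UMIs of both genes at 2000 UMIs per cell, and cells with neither gene are not given. In control 1, H19 stood at 560 CPM in 3935 cells with Vim alone, 107 in 135 cells with both and 70.1 in 66 cells with Epcam alone. Cells with both and cells with Epcam alone lay below the macrophage level of that library, 112 CPM. In NP137 1, where these states held similar numbers of tumour cells (795, 849 and 845), it stood at 215, 145 and 66.6 CPM. Control 2 had 184 CPM in 1053 cells with Vim alone and 37.0 in 37 cells with both. NP137 2 had 32.6 CPM in 46 cells with Vim alone, 2.82 in 159 with both and 2.63 in 427 with Epcam alone. These values rest on few cells, since all tumour cells of NP137 2 held 59 H19 UMIs, with 16 in 1 cell and 64.4% in 10 cells.

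Libraries were then compared at a fixed state. Cells with Epcam alone had 70.1 CPM in control 1 and 66.6 in NP137 1, with overlapping intervals (55.8 to 86.9 and 61.0 to 72.5), and 2.63 in NP137 2. Macrophages of the same libraries held 112, 12.2 and 0.906 CPM. The control 1 value thus lay below this reference and the NP137 1 value above it. Cells with Vim alone had 560 and 184 CPM in the controls and 215 and 32.6 in the NP137 libraries, so that NP137 1 lay between the controls. The groups thus overlapped in cells with Vim alone.

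By cluster, with leading genes taken against the other tumour clusters, H19 was highest in the one led by Eln, Mmp3 and Sfrp2, genes of matrix and its remodelling. It reached 653 CPM in 3675 cells of control 1 and 448 in 78 cells of NP137 1. The cluster led by Epcam, Gpx2 and S100a14 held 73.2 CPM in control 1, 116 in NP137 1 and 2.50 in NP137 2. Its control 1 value lay below the macrophage level of that library. A cluster led by Fxyd2, Rbp4 and Aldh3a1 held 350 and 221 CPM in control 1 and NP137 1, and one led by Mgp, Crisp1 and Sox2, found in control 2, held 174. A cluster led by Hist1h2ak, a histone gene, Acta1 and Cenpf, a kinetochore gene, held 172 CPM in control 1. Within NP137 1, tumour cells with Xist alone had 73.5 CPM and those with a Y-linked RNA alone 165.

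**Figure D3:**
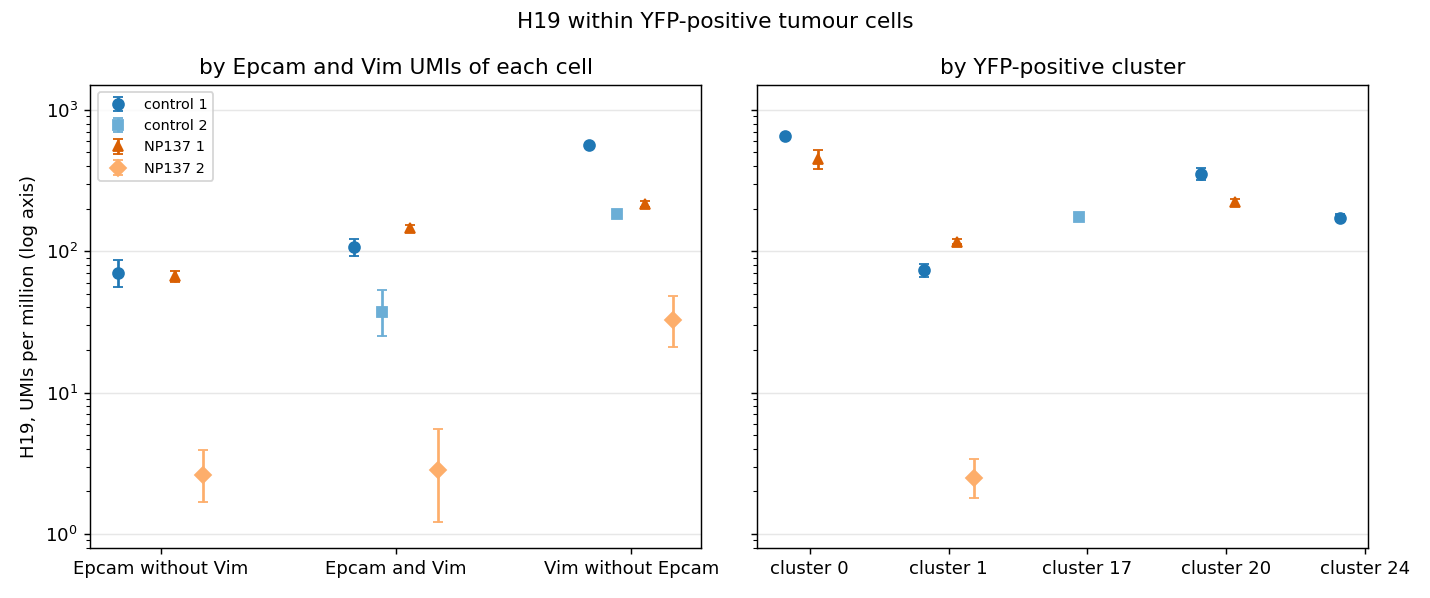
H19 in YFP-positive tumour cells (CPM, log axis, 95% Poisson intervals), left by Epcam and Vim UMIs of each cell (groups of at least 20 cells), right by cluster (at least 50 cells), with 1 symbol per library. Cells with neither gene are not shown. Among the states shown, cells with Vim alone are highest in every library, and NP137 2 lies below the others in each state.

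H19 was spread very unevenly over the tumour cells. At 2000 UMIs per cell, 68.2%, 89.1%, 86.0% and 99.3% of the tumour cells of control 1, control 2, NP137 1 and NP137 2 had no H19 UMI, while single cells reached 35, 107, 18 and 8. The tenth of cells with most H19 held 73.4%, 98.3%, 89.2% and 100% of its UMIs. Among genes with a mean of at least 0.01 UMIs, the ratio of variance to mean of H19 was 8.58 in control 1, rank 22 of 9848, 27.3 in control 2 (rank 4 of 9754), 5.40 in NP137 1 (rank 35 of 9264) and 7.92 in NP137 2 (rank 14 of 8850). The median gene had 1.02 to 1.04. Without thinning, the 10 cells richest in H19 held 6.46%, 35.6%, 12.4% and 64.4% of its UMIs, and without them the levels were 492, 115, 127 and 1.27 CPM. Control 2 then lay below NP137 1, so the order of these libraries rests on 10 cells.

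**Figure D4:**
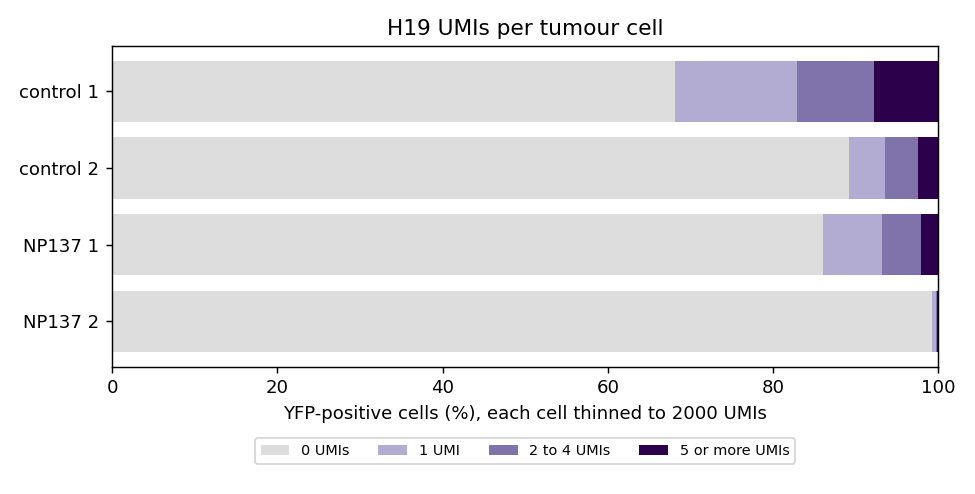
Share of YFP-positive tumour cells (%) with 0, 1, 2 to 4 and 5 or more H19 UMIs, each cell thinned to 2000 UMIs, by library. Cells with no H19 UMI make up 68.2% in control 1 and 99.3% in NP137 2.

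Tumour cells rich in H19 were set beside tumour cells without it, as a description. A separate thinning gave 328, 26 and 53 cells with 5 or more H19 UMIs in control 1, control 2 and NP137 1. The genes highest against cells with no H19 UMI were Thbs4, Clec3b and Cxcl10 in control 1, Lum, Runx1t1 and Postn in control 2, and Fmod, Prelp and Itih5 in NP137 1. The lowest were Aqp3, Acan and Col17a1 in control 1, Crisp1, Upp1 and Hmga1 in control 2, and Idi1, Rangrf and Nsfl1c in NP137 1. In control 1 Col17a1 and Krt14, both keratinocyte genes among the lowest 5, stood at 0.027 and 0.378 UMIs per cell against 0.253 and 2.26. Neither was among the lowest 5 in control 2 or NP137 1. Epcam was seen in 1.22% of H19-rich and 5.95% of H19-negative cells in control 1, 3.85% and 3.93% in control 2, and 39.6% and 64.1% in NP137 1. YFP was seen in 64.6% and 54.4%, 57.7% and 54.5%, and 84.9% and 77.5%. The proliferation gene Mki67 was seen in 1.83% and 8.97% of them in control 1, 19.2% and 12.6% in control 2 and 5.66% and 14.6% in NP137 1.

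Igf2, the growth factor beside H19, was measured mainly in tumour cells and at a low level. It gave 167 UMIs (3.36 CPM) in control 1, 160 (5.01 CPM) in control 2, 52 (1.99 CPM) in NP137 1 and 0 in NP137 2, where 0 of 16822809 UMIs allows up to 0.178 CPM. The libraries kept the groups apart, but the distance between NP137 1 and control 1 was smaller than that between the NP137 libraries. In fibroblast-like and in pericyte or smooth muscle-like cells no Igf2 UMI was found in any library. Neutrophil-like cells of control 1 had 3 UMIs (1.84 CPM). Outside the cells taken as tumour cells, the most was found in an unnamed shallow cluster of control 2, with 10 UMIs (3.49 CPM). It was led by Crisp1, Mgp and Clu, and Mgp and Crisp1 also led the tumour cluster found in control 2. Over all libraries 20.01% of its cells had a YFP UMI and 33.24% a Cdkn2a UMI, at a median depth of 887 UMIs. Whether it holds tumour cells was not tested. By tumour cluster, the Igf2 level in NP137 1 was 15.9 CPM in the 78 cells led by Eln and 0.151 in the 2274 cells led by Epcam. The cluster led by Fxyd2, with 546 of its 621 cells from NP137 1, held 6.46 CPM over all libraries, against 4.61 in that led by Eln. In single cells of control 1, an Igf2 UMI was found in 3.96% of 328 H19-rich and 0.52% of 2889 H19-negative cells. In control 2 these were 11.5% of 26 and 0.50% of 993 cells, so the first rests on 3 cells. In NP137 1 it was seen in 0 of 53 H19-rich cells, which allows up to 5.66%, and in 1.42% of cells with 1 to 4 H19 UMIs against 0.30% of negative ones.

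Igf2r, the receptor that clears IGF2, was the most evenly spread member. In tumour cells it stood at 104, 133, 57.1 and 38.5 CPM in control 1, control 2, NP137 1 and NP137 2, in fibroblast-like cells at 86.5, 105, 52.0 and 60.4, and in pericyte or smooth muscle-like cells at 135, 130, 85.2 and 106. Endothelial-like cells had 52.0, 70.9, 37.8 and 32.6 CPM and macrophages 10.3, 32.5, 5.19 and 18.1. Both controls lay above both NP137 libraries in these classes except macrophages, where the groups overlapped. Its ratio of variance to mean between tumour cells was 1.21, 1.15, 1.06 and 0.938 in control 1, control 2, NP137 1 and NP137 2. That was below the ratio of H19, but above 89.3%, 86.7%, 74.5% and 1.06% of the ranked genes.

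Dlk1, a membrane ligand related to Notch ligands, was strongest in pericyte or smooth muscle-like cells, with 116 CPM in control 1, 3.14 in control 2, 25.6 in NP137 1 and 8.39 in NP137 2. The groups overlapped, and control 1 stood apart from the other libraries. In tumour cells it was measured in control 1 (13.2 CPM, 659 UMIs) and hardly elsewhere, at 0.626, 0.077 and 0.059 CPM from 20, 2 and 1 UMIs. In control 1 the cluster led by Hist1h2ak had the most, 21.4 CPM, and the cluster led by Epcam 0.456. Fibroblast-like cells had 248 Dlk1 UMIs in NP137 2, of which 239 were in the cluster led by Lbp, Clec3b and Ptx3 (17.6 CPM against 0.322 in the other fibroblast-like cluster).

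Meg3, the noncoding RNA beside Dlk1, was the most abundant member in fibroblast-like and in pericyte or smooth muscle-like cells. It reached 1853, 934, 1753 and 913 CPM in pericyte or smooth muscle-like cells and 812, 1460, 534 and 583 in fibroblast-like cells of control 1, control 2, NP137 1 and NP137 2. Means of the classes, 1363 ± 509 and 847 ± 426 CPM (SD, n = 4), did not differ beyond the spread between libraries. A cluster led by the granzymes Gzme and Gzmd with Mmp13, rich in Col1a1 but left without a name, held 552 CPM in control 1, 1133 in NP137 1 and 774 in NP137 2. In tumour cells Meg3 stood at 75.5, 27.0, 4.83 and 7.13 CPM. That is above the macrophage level in the controls (7.67 and 3.51 CPM) and below it in both NP137 libraries (10.4 and 15.1 CPM). Within control 1 it was 89.0 CPM in the cluster led by Eln and 5.47 in that led by Epcam.

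Peg3, a zinc finger gene expressed from the paternal copy, was almost absent from tumour cells, at 0.422, 0.094, 0.383 and 0.119 CPM from 21, 3, 10 and 2 UMIs. Its highest mean was in endothelial-like cells, with 58.0 CPM in control 1, 19.3 in control 2, 109 in NP137 1 and 120 in NP137 2. In the blood capillary cluster it was 67.7, 20.1, 122 and 126 CPM. Fibroblast-like cells had 39.8, 27.0, 25.5 and 28.9 CPM. Class means of 76.6 ± 46.7 and 30.3 ± 6.46 CPM (SD, n = 4) came from ranges that overlapped, since endothelial-like cells of control 2 lay below the fibroblast-like cells.

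Plagl1, a zinc finger factor that regulates other imprinted genes, had its highest mean in fibroblast-like cells among classes with at least 50 cells in a library, at 28.1, 75.7, 14.9 and 49.4 CPM. Over all libraries together, the melanocyte-like cluster (173 cells) held 126 CPM, but its 133 cells of NP137 1 held 8.68. Tumour cells had 7.13, 3.75, 0.613 and 0.951 CPM. The fibroblast-like values overlapped between groups and the tumour values did not. T or NK-like cells had 9.48, 29.8, 10.0 and 13.9 CPM, from 4, 17, 5 and 31 UMIs.

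Cdkn1c, the cell cycle inhibitor, was found in tumour cells of all libraries, at 12.4, 2.44, 28.2 and 11.9 CPM, and had its highest tumour level in NP137 1. In control 2 it did not exceed the macrophage level (2.55 CPM) beyond counting error. In NP137 1 its level was 26.4 CPM in the cluster led by Epcam and 35.4 in that led by Fxyd2. Fibroblast-like cells had 58.5, 57.4, 37.2 and 37.5 CPM, and pericyte or smooth muscle-like cells 33.0, 18.8, 63.9 and 16.5. Endothelial-like cells had 14.1, 10.3, 18.1 and 10.1 CPM, above the macrophage level (1.53 to 3.07 CPM) in each library.

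In tumour cells, NP137 and control libraries were compared with all 13999 genes that passed the filter, which included all 8 members. Since the members were chosen with these values known, their differences are given without a test. On the log2 scale they were -2.09 for H19, -1.83 for Igf2, -1.06 for Igf2r, -6.39 for Dlk1, -2.87 for Meg3, 0.17 for Peg3, -2.56 for Plagl1 and 1.62 for Cdkn1c. NP137 lay below control without overlap for 6 members, beside 39.8% of all genes, and above for none, beside 18%. Peg3 and Cdkn1c overlapped. Single libraries set many of these values. Without control 1 the difference was -1.004 for H19, -2.80 for Dlk1, -1.85 for Meg3 and 3.33 for Cdkn1c. Without NP137 1 it was -6.41 for H19, -10.05 for Igf2, which then compares with a library at 0 and is no bound, and 0.90 for Cdkn1c. Without control 2 it was 0.86 for Cdkn1c, and without NP137 2 it was -0.88 for Igf2 and -1.12 for H19. Peg3 turned sign, from -0.90 without NP137 1 and -0.53 without control 2 to 0.70 without NP137 2 and 1.70 without control 1. edgeR's quasi-likelihood test called 1 gene at an adjusted p under 0.05, 0.00714% of those tested, which was Nr2f1 (named after its value was seen). At an unadjusted p under 0.05 it called 3235 genes (23.1%), and DESeq2 called 2198 of 14166 (15.5%). The makeup of the tumour cells differed between the groups as given above for Epcam and the marker sums, and the part of that makeup in these differences was not tested.

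In fibroblast-like cells (431, 61, 217 and 2886 cells, most of them in the cluster led by Mfap5, Cthrc1 and Sfrp1 in each library), 6 members could be tested, and Igf2 and Dlk1 were too low. All 6 had lower fitted levels with NP137, but none passed edgeR's quasi-likelihood test, where adjusted p ran from 0.927 to 0.96. Without the filter on low counts H19 had an adjusted p of 0.00102 in edgeR, and over its alternatives it ran from 0.00102 to 0.99. With the filter, none of the 10387 genes passed edgeR's adjusted threshold (0%), against 474 (4.56%) at an unadjusted p under 0.05, and DESeq2 called 15 of 5113 (0.293%). The log2 differences were -0.72 ± 0.23 (SE) for Igf2r, -0.99 ± 0.32 for Meg3, -0.61 ± 0.23 for Cdkn1c, -1.53 ± 0.60 for H19, -0.48 ± 0.71 for Plagl1 and -0.27 ± 0.30 for Peg3. The first 3 had an unadjusted p under 0.05, beside 2.33% of all genes in this direction. With H19 they make 4 members whose groups did not overlap, beside 19.1% of all genes. Without control 1 the H19 difference was -0.36, and its level above macrophages did not separate the groups, as given above. In the Mfap5 cluster alone Cdkn1c stood at 54.8, 61.5, 35.5 and 24.2 CPM, and in the Lbp cluster of NP137 2 at 64.8.

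In endothelial-like cells (289, 296, 472 and 254 cells), 5 members were tested and none passed (adjusted p from 0.6 to 0.868 in edgeR's quasi-likelihood test). None of 9514 genes did (0%), against 776 (8.16%) at an unadjusted p under 0.05, and DESeq2 called 0 of 16751. Peg3 differed by 1.67 ± 0.50 (log2, SE) and Meg3 by 1.60 ± 0.45, both with NP137 above control without overlap, as for 18% of all genes. Igf2r differed by -0.76 ± 0.28, with NP137 below control, as for 25.3%. H19 (-2.02 ± 0.97) and Cdkn1c (0.26 ± 0.44) overlapped, and without control 1 the H19 difference was -0.47. Cdkn1c differed by 0.05 without control 2, 0.48 without control 1, 0.65 without NP137 2 and -0.19 without NP137 1. Without control 1 Peg3 differed by 2.62 with an adjusted p of 0.0442 in edgeR, and over its alternatives the adjusted p ran from 1.73e-05 to 0.832. Meg3 in these cells was low, 4.46, 9.87, 18.9 and 24.7 CPM, and macrophages of the same libraries showed the same order of groups (7.67, 3.51, 10.4 and 15.1 CPM). Above macrophages it was -3.21, 6.37, 8.52 and 9.67 CPM, with intervals that included 0 in control 1 and NP137 1. The fibroblast markers in endothelial-like cells, of which at least 8 of 10 were over 5 CPM in each library, summed to 777, 470, 297 and 917 CPM. The pericyte or smooth muscle markers there, with 5 to 7 of 10 over 5 CPM and 1 at 0 in control 1, summed to 130, 58.8, 157 and 239 CPM, with NP137 above control as for Meg3. The part of either list in the Meg3 values was not tested.

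**Figure D5:**
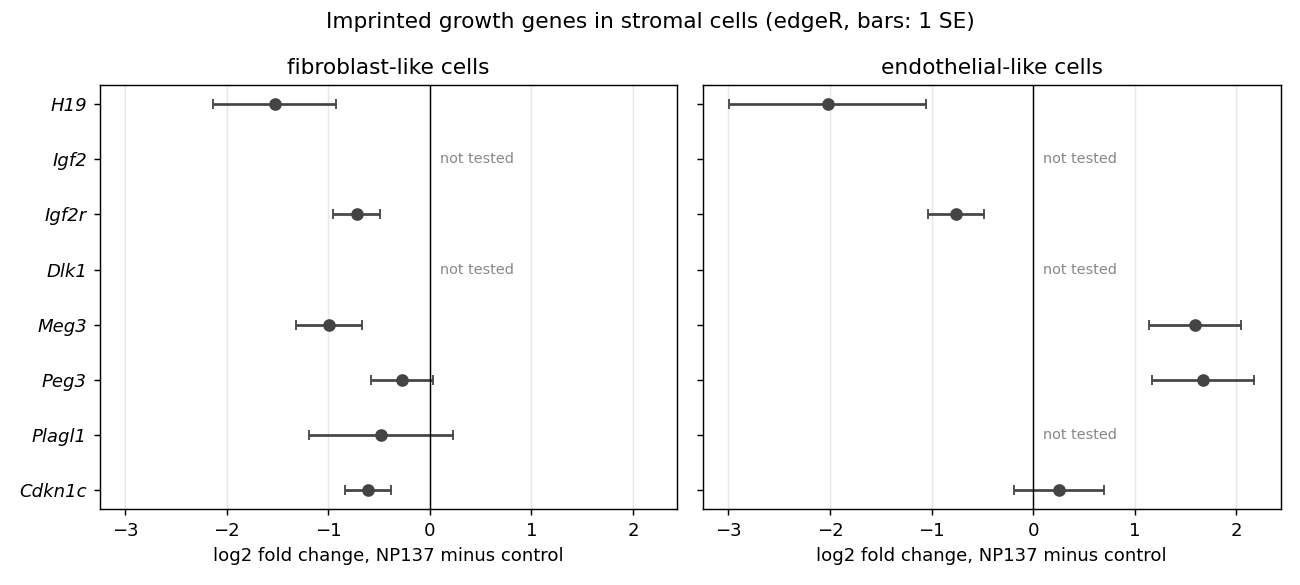
Log2 fold change of each member with NP137 against control (points, edgeR fit on 2 and 2 libraries) with 1 standard error, in fibroblast-like and endothelial-like cells. All 6 tested members lie below 0 in fibroblast-like cells, while Meg3 and Peg3 lie above 0 in endothelial-like cells, and none passed the adjusted threshold.

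A list of 40 other imprinted genes, 38 of them with a row, was followed beside the members. This list and that of the IGF axis below were chosen with earlier results of these data known. Their p-values are therefore a description and no independent test. In tumour cells 26 were tested and none passed edgeR's adjusted threshold. Unadjusted, 4 were higher and 8 lower with NP137 (10.5% and 12.6% of all genes), and DESeq2 called 3 and 8 (6.59% and 8.92%). Their median log2 difference was -0.51, against -0.04 over all genes. Groups did not overlap for 6 higher and 14 lower genes, beside 18% and 39.8% of all genes. Values are given for the 3 genes of smallest p on each side of 0 among those with a mean of at least 10 CPM. Phlda2, a growth-restraining gene of placenta 40.5 kb from Cdkn1c, stood at 8.60, 2.22, 92.5 and 65.3 CPM in control 1, control 2, NP137 1 and NP137 2 (4.07 ± 0.76, log2, SE; edgeR adjusted p = 0.0946). Sgce, a sarcoglycan, stood at 41.8, 25.4, 0.805 and 0.357 CPM (-5.59 ± 0.59; edgeR adjusted p = 0.0749). Tfpi2, a protease inhibitor, stood at 34.2, 12.3, 1.11 and 1.49 CPM (-3.94 ± 0.69; edgeR adjusted p = 0.0887). Mcts2 and Copg2 had smaller differences above 0 (1.06 and 0.91) and Airn, the antisense partner of Igf2r, 1 below (-1.42). Of lower mean, and named after their values were seen, Rasgrf1 (-8.27), Peg10 (-5.93), Ppp1r9a (-5.23), Ndn (-4.04), Nespas (-3.84) and Grb10 (-2.62) below 0 and Ascl2 (3.63) and Slc22a18 (3.13) above 0 also had an unadjusted p under 0.05, and Copg2 and Airn did not.

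In fibroblast-like cells 19 and in endothelial-like cells 17 of the list were tested, and none had an unadjusted p under 0.05 in either (4.56% and 8.16% of all genes). Their medians, -0.10 and -0.02, were near those of all genes, -0.01 and -0.02. In fibroblast-like cells Tfpi2 (-0.50), Mirg (-0.75) and Mest (-1.53) had the smallest p below 0 among genes of at least 10 CPM, and Ndn (0.28), Sgce (0.10) and Kcnq1ot1 (0.17) above. In endothelial-like cells these were Inpp5f (-0.54), Kcnq1ot1 (-0.32) and Sgce (-0.50) below and Mcts2 (0.58), H13 (0.37) and Mest (1.51) above. Sgce, with non-overlapping groups in tumour cells, stood at 41.9, 40.5, 46.7 and 41.1 CPM in fibroblast-like cells.

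Of 20 genes of the IGF axis, the ligand, receptors, binding proteins and adaptors around Igf2, 18 were tested in tumour cells. None passed the adjusted threshold of edgeR. Unadjusted, 1 was higher and 5 lower (10.5% and 12.6% of all genes), and DESeq2 called 1 and 3 (6.59% and 8.92%). The median log2 difference was -0.93, against -0.04 over all genes. Igf1r, the receptor that transmits IGF signals, stood at 139, 128, 52.5 and 62.3 CPM (-0.96 ± 0.26; edgeR adjusted p = 0.134), and Igfbp7 at 394, 537, 1058 and 667 CPM (1.13 ± 0.30; edgeR adjusted p = 0.127). By the same rule Irs2 and Igf2bp2 (0.86 and 0.22) are named above 0 and Igfbp3 and Igfbp6 (-1.48 and -2.29) below, none of them at an unadjusted p under 0.05. The other genes called lower had a mean under 10 CPM and are named after their values were seen, Stc1 (-3.81), Stc2 (-2.47), Igf1 (-4.26) and Igfbp5 (-3.28).

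In fibroblast-like cells 15 of the axis were tested, with 1 higher and 3 lower unadjusted (2.23% and 2.33% of all genes). None passed edgeR's adjusted threshold, and DESeq2 called 1 lower, beside 0.293% of all genes called in either direction. Below 0 the lowest p belonged to Igf1, the other ligand of the receptor, with 268, 519, 151 and 110 CPM (-1.57 ± 0.37; edgeR adjusted p = 0.927). Irs1, an adaptor of the receptor, had 20.8, 23.0, 8.49 and 9.74 CPM (-1.19 ± 0.31) and Igfbp5 286, 1295, 84.9 and 98.8 CPM (-3.06 ± 0.77). The gene called higher was Stc1, a stanniocalcin, of mean under 10 CPM and named after its values were seen, with 1.64, 0.676, 18.1 and 9.43 CPM (3.27 ± 0.64, edgeR adjusted p = 0.927). Also above 0 were Stc2 (1.65), Igfbp2 (2.26) and Irs2 (0.09), whose groups overlapped. In endothelial-like cells 11 were tested, with none higher and 3 lower unadjusted (3.57% and 4.58% of all genes). These were Insr, the insulin receptor, with 253, 276, 111 and 133 CPM (-1.06 ± 0.21; edgeR adjusted p = 0.6), Igfbp6 (-1.36 ± 0.47) and Igf1r (-1.09 ± 0.39). Igfbp3 (0.97), Igfbp5 (0.69) and Stc1 (0.01) lay above 0 with overlapping groups, and Stc2 (0.32), of mean under 10 CPM, without overlap.

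Across the 53 sums of a library and a class with at least 50 cells, the genes most like H19 among 10599 were Cdkn2a (Pearson r = 0.811 of log2(CPM + 1)), Ank (0.802), Mme (0.773), Stmn2 (0.772) and Igfbp4 (0.769). H19 and Igf2 had r = 0.489, and the other members r between -0.01 and 0.293 with H19. These points share libraries and depth and are a description. Meg3 was most like Col5a3, Col6a3 and Olfml2b (0.959, 0.953 and 0.936), and Peg3 most like Hoxd9, Fbxl7 and Nsg1 (0.862, 0.851 and 0.85). Cdkn1c was most like Selenom, Ptk7 and Npdc1 (0.851, 0.849 and 0.846), and among the members Cdkn1c and Peg3 were closest to each other (0.713). Igf2r had Rbfox2, Rab23 and Senp5 (0.834, 0.819 and 0.801), Plagl1 had Pxylp1, Islr and Zfhx4 (0.726, 0.692 and 0.686), and Dlk1 had Itga7, Gm13889 and H2-M9 (0.654, 0.644 and 0.62).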

How the data were processed

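The deposited matrices hold raw UMI counts per gene and barcode. Per the file headers, the authors used version 3.0.2 of the 10x software. The submitters' processing notes name the mm10 build and Seurat 3.1.5. Barcodes with fewer than 200 genes or with 20% or more of mitochondrial UMIs were dropped, and doublets were removed with Scrublet at an expected 0.8% per 1000 barcodes. Cells were clustered with scanpy 1.11.5 (2000 variable genes without the members and lists, 30 components, 15 neighbours, Leiden resolution 1). Classes of at least 50 cells per library were named from marker lists. Counts were summed by library and class and tested with edgeR 4.0.16 (TMM, quasi-likelihood, filterByExpr, Benjamini-Hochberg) and, as an alternative, DESeq2 1.42.0, in R 4.3.3. The scripts were tested on simulated data. CPM were computed from the summed counts. Shares were read after thinning cells to 2000 UMIs. Members and lists were chosen with earlier results of these data known. Of each list, the 3 genes with the smallest p on each side of 0 and a mean of at least 10 CPM are named.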

Additional observations from a re-analysis of the deposited data

Results flagged for a closer look

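Meg3 differed in opposite directions between cell classes, with both NP137 libraries above both controls in endothelial-like cells and below them in tumour cells and fibroblast-like cells. The log2 difference in endothelial-like cells exceeded that in YFP-positive tumour cells by 4.46 and that in fibroblast-like cells by 2.59. These differences between classes were not tested. Meg3 in endothelial-like cells was low, 4.46 to 24.7 CPM, and macrophages showed the same order of groups, as given above.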

How the results depend on the processing

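In tumour cells the count of genes called, 1, became 2198 with DESeq2, 1136 without the filter on low counts, and 0 with doublets kept or with tumour cells limited to those with YFP and Cdkn2a UMIs (chosen after seeing the data). Leaving out a library gave 0 to 317 genes, with 110 without control 1 and 317 without NP137 1. With the replicate number as a block the count was 0 in tumour, fibroblast-like and endothelial-like cells. The 2 pairs share only a number (r of deviations 0.028, 0.12 and 0.002). In fibroblast-like cells the count of 0 became 15 with DESeq2, 212 without the filter, and 0 to 29 on leaving out a library, the most without control 1. In endothelial-like cells it became 117 without the filter and 0 to 11 on leaving out a library, the most without control 1. The cause was not tested. On leaving out a library the log2 difference of Peg3 in fibroblast-like cells ran from -0.52 to 0.056 (above 0 without control 1), that of Plagl1 there from -1.75 to 0.33 (0.33 without control 2 and 0.005 without NP137 1), and that of Cdkn1c in endothelial-like cells from -0.19 (without NP137 1) to 0.65. Member differences kept their sign in 86 of 88 alternative values in tumour cells, 57 of 60 in fibroblast-like and 49 of 50 in endothelial-like cells. Depth limits Igf2, Dlk1 and Peg3 in tumour cells most, with 0, 1 and 2 UMIs in NP137 2.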

Other observations

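A cluster of shallow cells in control 1 (339 cells), left unnamed and led by H19, Bex1 and Krt8, held 817 CPM of H19. That is more than in the cells taken as tumour cells in that library. Over all libraries 34.8% of the cluster's cells had a YFP UMI and 52.5% a Cdkn2a UMI, at a median depth of 770 UMIs. Whether it holds tumour cells was not tested. An unnamed cluster of control 2 led by Crisp1, Mgp and Clu (1673 cells) held 196 CPM. Whether this cluster holds tumour cells was not tested either. A cluster led by Coch, Cilp and Apod carried Peg3 at 66.4 CPM in control 1, 74.4 in control 2 and 43.7 in NP137 1, and Cdkn1c at 64.0, 37.2 and 62.0.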
